A study of Mus musculus with 32 samples.

Results

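SWI/SNF complexes move nucleosomes along DNA, and 30 genes that encode their subunits are described here, out of 19938 genes measured. They were listed by name from the BAF, PBAF and ncBAF forms of the complex. Every one of the 30 had a probe set assigned to it alone, so all of them were followed across the 8 groups of the study. The members were taken from a list of known subunits and not by their values. The list was, however, chosen with earlier results of these data known.

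The cultures came from tumours grown in mice. Neurosphere cells from the lateral ventricle wall of postnatal Trp53-deficient animals (strain B6;129-Trp53tm1Brd) were made to overexpress oncogenes and were transplanted into the brain; tumour cells that carried the transgene were then sorted and grown as neurospheres. Loss of Trp53 is common to all 8 groups, and no culture without an added oncogene was analysed here. MYC alone (6 arrays), MYC+Ezh2 (5 arrays) and MYC+Bmi1 (3 arrays) came from tumours labelled PNET, primitive neuroectodermal tumour. HRAS alone (5 arrays) and HRAS+Bmi1 (2 arrays) came from gliomas. HRAS+MYC (7 arrays) came from tumours labelled AT/RT-like, after the atypical teratoid/rhabdoid tumour. In the other two groups a first oncogene had already formed a tumour before the next was added: HRAS in PNET-derived cells (called MYC then HRAS, 2 arrays) and MYC in glioma-derived cells (called HRAS then MYC, 2 arrays). The labels do not say which cultures share a tumour, a mouse or a transduced parent culture, so the p-values measure the spread between these arrays, part of which may be technical.

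SWI/SNF complexes use ATP hydrolysis by Smarca4 (BRG1) or its paralogue Smarca2 (BRM) to slide or evict nucleosomes. A shared core joins the ATPase to one of several alternative modules: Arid1a or Arid1b with a Dpf protein in BAF, Arid2 with Pbrm1, Brd7 and Phf10 in PBAF, and Brd9 with Bicra or Bicral in ncBAF. When neural progenitors leave the cell cycle, some subunits are exchanged for neural paralogues, Actl6a for Actl6b and Phf10 or Dpf2 for Dpf1 or Dpf3. Smarcd3 is another subunit enriched in neural and muscle lineages. In patients, most AT/RTs have lost SMARCB1, a core subunit.

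Values are log2 expression levels, so a difference of 1 is a doubling, and a level of 1 gene is compared only with its own level in other arrays. A gene is called higher or lower when its limma p-value, adjusted by Benjamini-Hochberg over all 19938 genes of the comparison, is under 0.05. By the test for any difference among the 8 groups, 27 of the 30 subunits varied, against a background of 49.7% of all genes. That background includes weakly expressed genes, and of 56 genes of other chromatin remodellers 43 passed the same test. Smarcd2, Dpf2 and Ss18l1 were the members that did not pass. The first principal component of the 30 genes held 62.1% of their variance and was positive in 14 of the 14 arrays without HRAS and negative in 18 of the 18 arrays with it. On the next component, with 14.4%, the 9 arrays of HRAS, HRAS+Bmi1 and HRAS then MYC lay below 0, and the 9 arrays of HRAS+MYC and MYC then HRAS lay above it. Bcl11a had the largest weight on both components (0.59 and 0.62). The first components of all 19938 genes parted these arrays in the same way, so the grouping is not particular to the subunits.

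**Figure D1:**
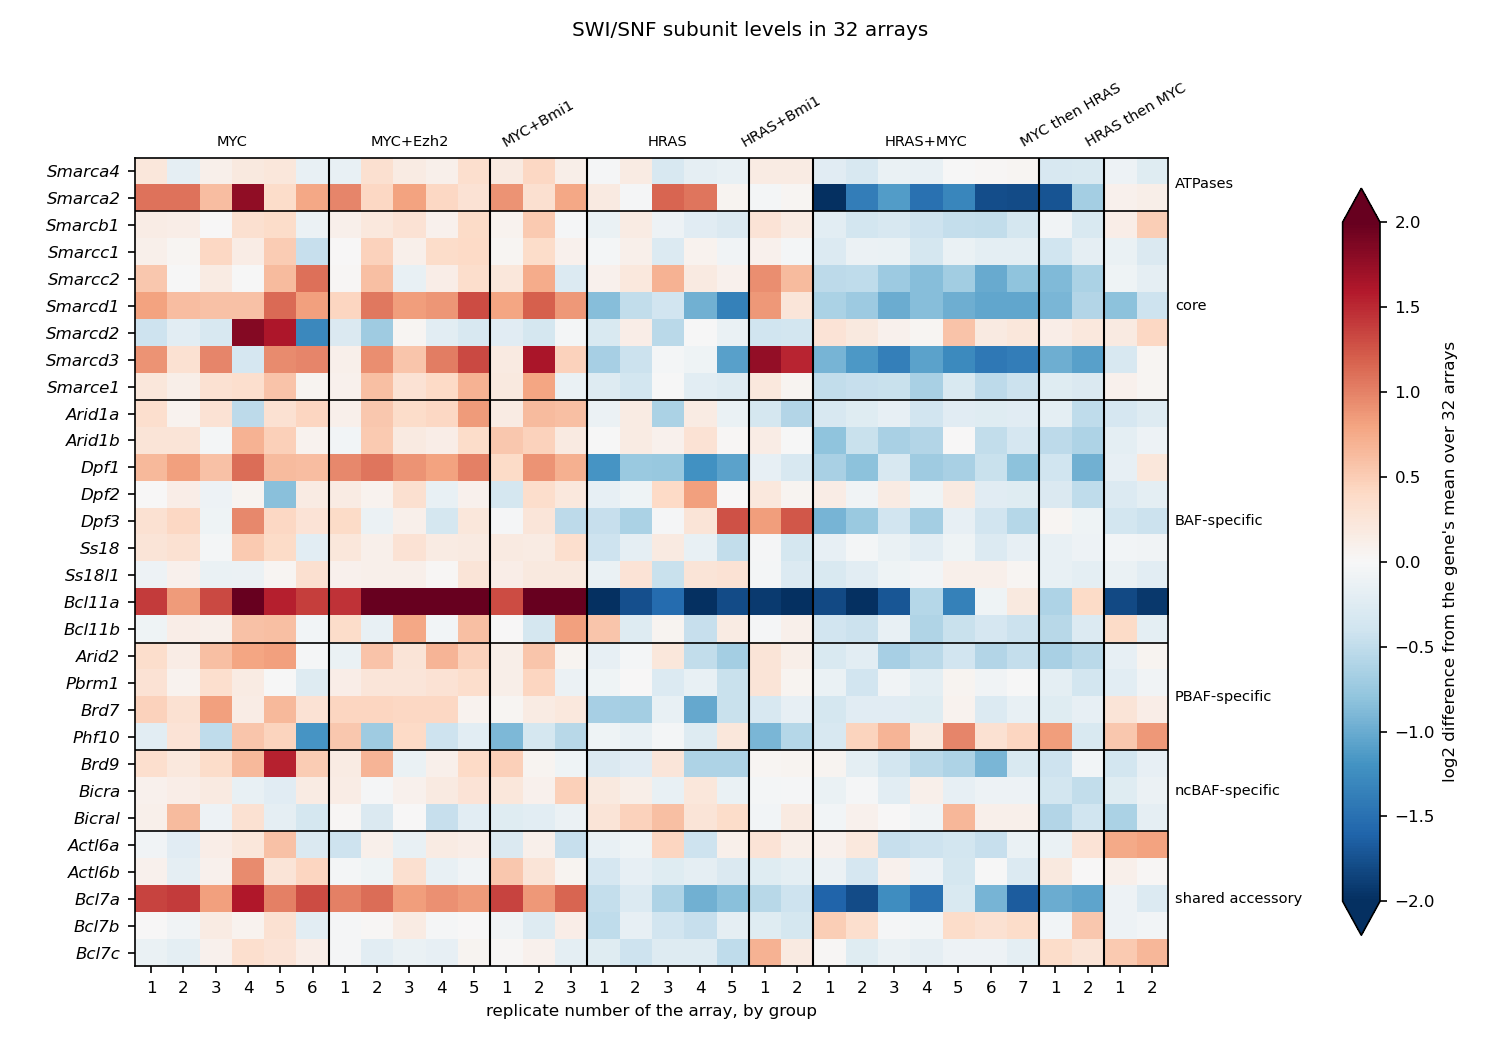
Levels of the 30 SWI/SNF subunit genes (rows, by role) in 32 arrays (columns, by group and replicate number), as the log2 difference from each gene's own mean over all arrays; colours are capped at 2 in either direction. Bcl11a, Bcl7a, Smarcd1, Smarcd3 and Dpf1 are high in most arrays without HRAS, Smarca2 is low in the HRAS+MYC and MYC then HRAS arrays, and Smarcd3 is high again in both HRAS+Bmi1 arrays.

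The promoters of the subunits on which the comparisons turn are given first, from RefSeq on assembly GRCm38.p6. Each runs from 250 bases before to 50 bases after an annotated start site and is written 5′ to 3′ on the gene's strand. Capitals mark matches, on either strand, to the AP-1 motif TGANTCA or the ETS motif CCGGAAG, which are bound by transcription factors downstream of RAS signalling, or to the E-box CACGTG, which is bound by MYC with MAX. The neural subunits Dpf1 (chr7:29303755-29304054, plus strand), Smarcd3 (chr5:24601953-24602252, minus strand) and Actl6b (chr5:137553296-137553595, plus strand) are shown beside Smarca2 (chr19:26604910-26605209, plus strand) and Smarcb1 (chr10:75921565-75921864, minus strand).
Dpf1: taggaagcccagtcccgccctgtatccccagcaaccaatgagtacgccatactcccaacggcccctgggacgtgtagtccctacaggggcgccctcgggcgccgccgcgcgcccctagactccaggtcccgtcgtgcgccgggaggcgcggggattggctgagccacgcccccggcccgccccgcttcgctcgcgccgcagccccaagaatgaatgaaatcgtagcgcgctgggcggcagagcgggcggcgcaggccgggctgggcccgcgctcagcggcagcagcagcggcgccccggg
Smarcd3: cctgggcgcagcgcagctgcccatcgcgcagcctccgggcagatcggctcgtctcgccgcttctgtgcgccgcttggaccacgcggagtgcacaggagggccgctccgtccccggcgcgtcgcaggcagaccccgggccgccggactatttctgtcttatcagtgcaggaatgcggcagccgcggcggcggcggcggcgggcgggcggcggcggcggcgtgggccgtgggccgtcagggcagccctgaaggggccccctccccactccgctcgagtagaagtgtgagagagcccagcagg
Actl6b: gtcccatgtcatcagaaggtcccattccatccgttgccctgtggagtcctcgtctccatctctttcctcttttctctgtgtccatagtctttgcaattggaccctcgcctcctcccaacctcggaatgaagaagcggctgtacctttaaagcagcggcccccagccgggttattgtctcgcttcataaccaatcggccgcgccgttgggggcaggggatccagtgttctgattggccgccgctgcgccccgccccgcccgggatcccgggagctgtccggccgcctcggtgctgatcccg
Smarca2: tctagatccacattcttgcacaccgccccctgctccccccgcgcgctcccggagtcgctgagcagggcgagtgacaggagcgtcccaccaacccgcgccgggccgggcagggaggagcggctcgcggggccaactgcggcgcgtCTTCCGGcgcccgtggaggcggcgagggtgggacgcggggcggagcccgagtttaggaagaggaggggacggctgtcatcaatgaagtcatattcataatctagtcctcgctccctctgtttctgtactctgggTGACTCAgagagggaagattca
Smarcb1: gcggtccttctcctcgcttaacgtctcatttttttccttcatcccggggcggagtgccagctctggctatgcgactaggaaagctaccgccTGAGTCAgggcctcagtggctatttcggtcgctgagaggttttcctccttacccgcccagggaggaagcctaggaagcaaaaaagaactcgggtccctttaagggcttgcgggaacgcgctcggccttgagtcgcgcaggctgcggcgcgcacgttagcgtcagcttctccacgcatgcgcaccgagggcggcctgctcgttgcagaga
The 3 neural windows hold none of the 3 motifs. The Smarcd3 window lies at a start site inside the gene, whose annotated upstream end is at 24624456, and that end was not scanned. Smarca2 has an ETS match that starts at position -106 and an AP-1 match at 29, and Smarcb1 has an AP-1 match at -159, counted from the start site. RefSeq windows were matched for 24 of the 30 subunits (not for Smarce1, Arid2, Bcl7a, Ss18, Bicra and Bicral). Among these 24, the AP-1 motif was in 2 (9.0% of all 27025 genes with a window), the ETS motif in 3 (Smarca2, Smarcc1 and Brd9; 9.9% of all genes) and the E-box in 3 (Bcl7b, Bcl7c and Pbrm1; 8.1% of all genes). The 26 windows of the 24 subunits had a median GC content of 68.8% and 33 CG steps per 300 bases, against 52.7% and 7 over all windows. A match describes the letters of the window and shows no binding.

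Of the neural subunits, Dpf1 separated all MYC arrays from all HRAS arrays, while Smarcd3 and Actl6b overlapped between these groups. The levels of the neural subunits are given first. Dpf1, a PHD-finger subunit of neuronal BAF, was at 8.61, 8.66 and 9.15 (lowest, median and highest) in the 6 MYC arrays. In the 5 HRAS arrays it was at 6.84, 7.28, 7.27, 6.81 and 6.96. The 7 HRAS+MYC arrays spanned 7.20 to 7.71 with a median of 7.38. MYC arrays therefore lay above every HRAS and HRAS+MYC array, with no overlap. Dpf1 was at 8.99, 9.10, 8.92, 8.82 and 9.03 in MYC+Ezh2 and at 8.41, 8.92 and 8.73 in MYC+Bmi1. It was at 7.85 and 7.70 in HRAS+Bmi1, at 7.62 and 7.06 in MYC then HRAS, and at 7.86 and 8.25 in HRAS then MYC. Its 5 groups with HRAS all lay below its 3 groups without, and among them HRAS then MYC had the highest mean and HRAS alone the lowest.

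Smarcd3 (BAF60C) followed another order. It was at 6.94, 8.19 and 8.25 (lowest, median and highest) in MYC, where replicate 4 was the low array, and at 6.61, 6.85, 7.23, 7.20 and 6.18 in HRAS. The highest HRAS arrays reached into the MYC range. The HRAS+MYC arrays lay lower still, at 5.85, 6.01 and 6.34, overlapping only HRAS replicate 5. Its highest group mean was in the glioma cultures with Bmi1, at 9.03 and 8.80. The MYC+Ezh2 arrays were at 7.37, 8.21, 7.82, 8.30 and 8.59 and the MYC+Bmi1 arrays at 7.45, 8.91 and 7.73. MYC then HRAS gave 6.29 and 6.19, within the range of HRAS+MYC. HRAS then MYC gave 6.96 and 7.30, above all 7 HRAS+MYC arrays.

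Actl6b (BAF53B), the actin-related subunit of postmitotic neurons, was weak everywhere. Its group means were all under 6, the level used as the filter on weak genes, and it was the 1 member of 30 that the filter removes. It was at 5.09, 5.43 and 6.22 (lowest, median and highest) in MYC and at 4.93, 5.10, 5.03, 5.08 and 4.97 in HRAS. HRAS+MYC was at 4.91, 5.14 and 5.34. HRAS and MYC overlapped only through MYC replicate 2, at 5.09, and the highest array, at 6.22, was MYC replicate 4. Actl6b was at 5.22, 5.18, 5.59, 5.12 and 5.19 in MYC+Ezh2, at 5.81, 5.51 and 5.31 in MYC+Bmi1 and at 5.02 and 5.07 in HRAS+Bmi1. The consecutive cultures were at 5.46 and 5.27 (MYC then HRAS) and at 5.36 and 5.28 (HRAS then MYC), within the MYC range.

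Smarcb1 (SNF5, BAF47) had a strong signal in every culture, the AT/RT-like ones included. It was at 10.16, 10.42 and 10.66 (lowest, median and highest) in MYC, at 10.16, 10.45, 10.19, 10.05 and 9.998 in HRAS and at 9.79, 9.91 and 10.08 in HRAS+MYC. All 7 HRAS+MYC arrays lay below all 6 MYC arrays, but the distance was small beside that of Dpf1 or Smarcd3. MYC+Ezh2 gave 10.39, 10.50, 10.57, 10.36 and 10.67, and MYC+Bmi1 gave 10.35, 10.81 and 10.25. HRAS+Bmi1 gave 10.56 and 10.45, MYC then HRAS gave 10.21 and 9.98, and HRAS then MYC gave 10.42 and 10.78. The HRAS+MYC group had the lowest mean of the 8 and HRAS then MYC the highest.

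Of the ATPases, Smarca4 stayed within 9.79 to 10.53 over all 32 arrays, while Smarca2 ranged from 5.17 to 8.95. Smarca4 was at 9.94, 10.27 and 10.35 (lowest, median and highest) in MYC, at 10.10, 10.27, 9.80, 9.94 and 9.97 in HRAS and at 9.79, 9.99 and 10.16 in HRAS+MYC. It was at 9.97, 10.43, 10.28, 10.22 and 10.45 in MYC+Ezh2, at 10.30, 10.53 and 10.23 in MYC+Bmi1 and at 10.29 and 10.28 in HRAS+Bmi1. MYC then HRAS gave 9.79 and 9.82 and HRAS then MYC gave 10.02 and 9.87. Most groups overlapped for this gene.
Smarca2 was at 7.54, 8.10 and 8.95 in MYC, at 7.35, 7.15, 8.33, 8.24 and 7.23 in HRAS and at 5.17, 5.68 and 6.05 in HRAS+MYC. It was at 8.15, 7.59, 7.98, 7.58 and 7.46 in MYC+Ezh2, at 8.07, 7.50 and 7.94 in MYC+Bmi1 and at 7.13 and 7.22 in HRAS+Bmi1. MYC then HRAS gave 5.45 and 6.48, and HRAS then MYC gave 7.25 and 7.29. The 7 HRAS+MYC arrays and both MYC then HRAS arrays were the only ones of the 32 below 7.

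**Figure D2:**
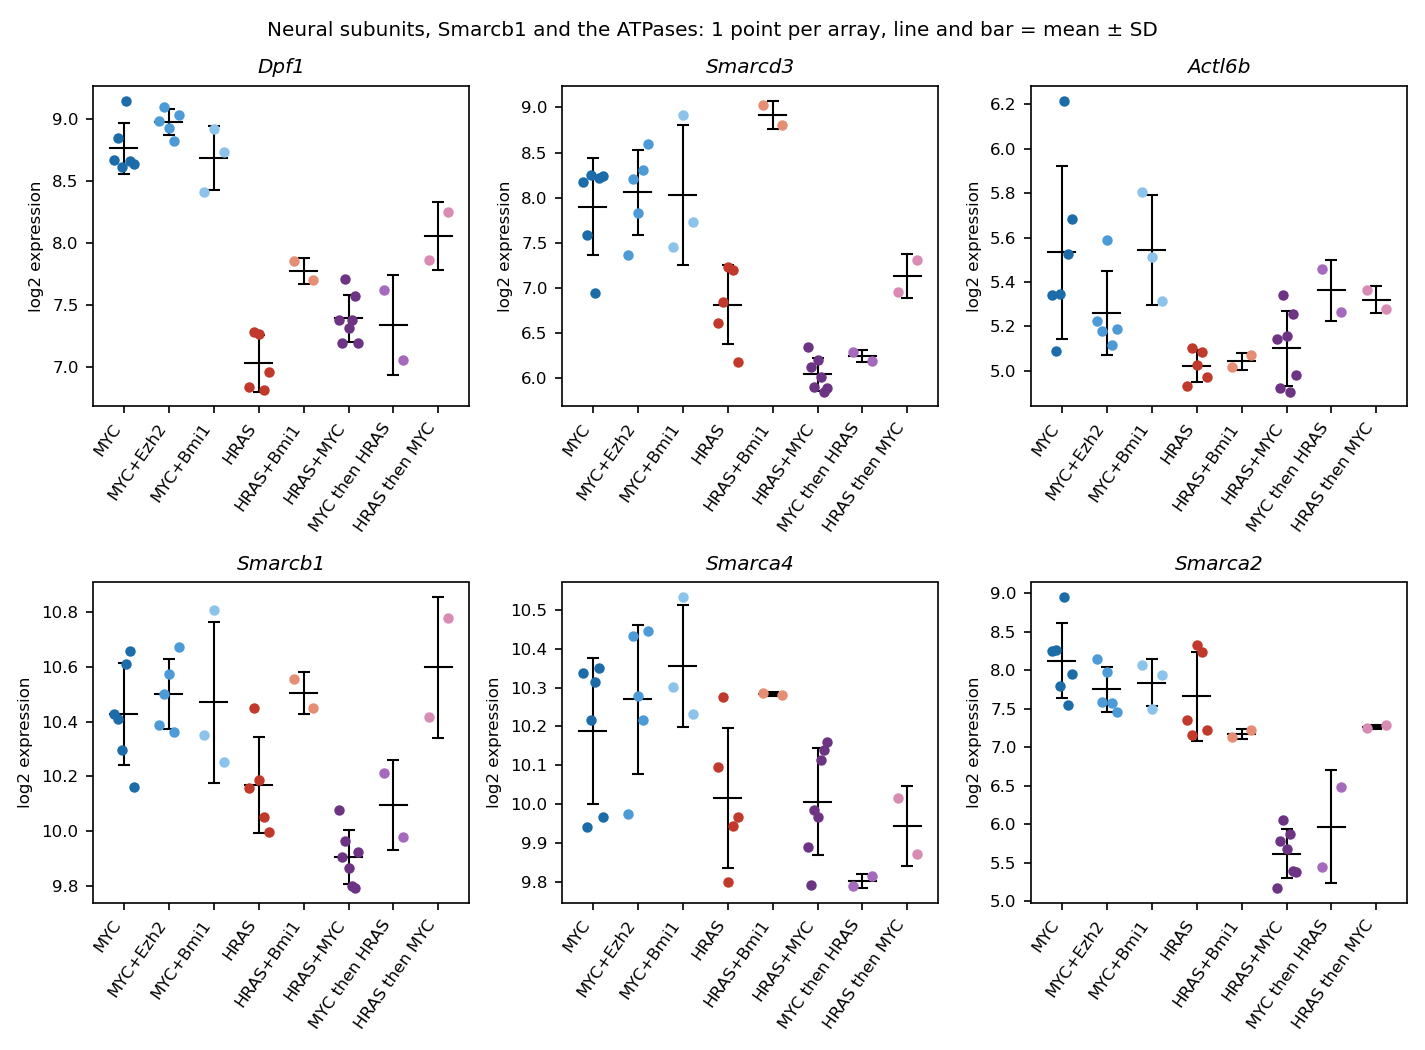
Log2 expression of Dpf1, Smarcd3, Actl6b, Smarcb1, Smarca4 and Smarca2 in the 8 groups; each point is an array, and the line and bar are the mean and SD. The vertical scale differs between panels: Smarca2 drops below 7 only in HRAS+MYC and MYC then HRAS, whereas Smarca4 stays between 9.79 and 10.53.

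The comparison of HRAS with MYC cultures asks how the glioma cultures differ from the PNET cultures, each with 1 oncogene. Subunits were lower in HRAS: 14 of the 30 fell and 0 rose, with a median difference of -0.34 over the 30 against -0.03 over all genes. Bcl11a, a zinc-finger BAF subunit with neural and lymphoid roles, fell by 3.39 on the log2 scale. The neural subunits Dpf1, Smarcd3 and Actl6b all fell, as did 11 of the 26 general subunits, while Smarcb1 did not pass. General subunits here are all other members, so they include Dpf3, Ss18l1, Bcl11a and Bcl11b, which also have neural roles. In the same comparison 33.4% of all genes passed, 18.0% as lower and 15.4% as higher. The 14 are 46.7% of the subunits. Subunits are mostly well-expressed genes, and among the 12311 genes with a group mean of at least 6 the share called was 52.3%, against 13 of the 29 subunits there (44.8%). The number of subunits called is thus no larger than in expressed genes; the split of directions was 0 higher and 13 lower, beside 23.8% higher and 28.5% lower for expressed genes.

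Bcl11a was at 8.60, 9.12 and 10.17 (lowest, median and highest) in MYC and at 5.71, 5.98, 6.20, 5.34 and 5.94 in HRAS. The arrays did not overlap (SE of the difference 0.34, adjusted p = 6.75e-09). The HRAS mean of 5.83 was under the level of 6 used as the filter on weak genes, where differences can be compressed and no detection call was used, so no fold is given. Bcl7a, a small accessory subunit, was at 9.46, 9.97 and 10.24 in MYC and at 8.16, 8.36, 8.02, 7.68 and 7.81 in HRAS. It fell by 1.88 (SE 0.19, adjusted p = 9.99e-09), also without overlap. Smarcd1 (BAF60A), the paralogue of Smarcd3, was at 9.43, 9.54 and 9.97 in MYC and at 7.995, 8.34, 8.46, 7.87 and 7.49 in HRAS. This fall of 1.57 (SE 0.16, adjusted p = 1.77e-08) again left a gap between the groups. Brd7, a bromodomain subunit of PBAF, was at 9.60, 9.85 and 10.28 in MYC and at 8.80, 8.78, 9.31, 8.44 and 9.01 in HRAS, a fall of 1.04 (SE 0.12, adjusted p = 1.37e-07). Together with Dpf1, Smarce1 and Bcl7c, these genes make up the 7 of 30 subunits whose HRAS and MYC arrays do not overlap, where 15.8% of all genes show no overlap.

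Dpf1 fell by 1.73 (SE 0.13, adjusted p = 2.58e-11) and was 3.31-fold lower in HRAS. An exact permutation test of the arrays gave p = 0.00216 (2-sided), the smallest that this test can give with these arrays. Smarcd3 fell by 1.09 (SE 0.25, adjusted p = 0.00119) and Actl6b fell by 0.51 (SE 0.14, adjusted p = 0.00418). Smarcb1 differed by -0.26 (95% interval -0.48 to -0.04, adjusted p = 0.0637), which did not pass, and the exact test gave p = 0.0563. Of the 26 general subunits 15 had a difference below that of Smarcb1, and their median was -0.29, while the median of the 3 neural subunits was -1.09. That neural median is the Smarcd3 value, and Bcl11a, Bcl7a and Smarcd1 of the general list fell by more. Smarcb1 passed as lower without HRAS replicate 2 (adjusted p = 0.0208) or without MYC replicate 6 (adjusted p = 0.0246).

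By role, with 52.3% of expressed genes called, 3 of 7 core subunits fell (Smarcd1, Smarcd3 and Smarce1). Neither ATPase passed: the difference was -0.17 for Smarca4 and -0.46 for Smarca2. In BAF, 3 of 9 fell, namely Dpf1, Bcl11a and Ss18 (-0.42). In PBAF, 3 of 4 fell: Brd7, Arid2 (-0.68), which is the DNA-binding ARID subunit of that complex, and Pbrm1 (-0.29), a protein with several bromodomains. In ncBAF, 1 of 3 fell, the bromodomain protein Brd9 (-0.90). Of the 5 accessory subunits, Actl6b, Bcl7a, Bcl7b and Bcl7c fell, and Actl6a, the progenitor counterpart of Actl6b, differed by -0.08. Pbrm1 was the least certain of these: its call was lost without HRAS replicate 3 (adjusted p = 0.071) or 5 (0.127), or without MYC replicate 1 (0.0826), 3 (0.0892) or 4 (0.0607). The Pbrm1 call was also lost with its probe sets averaged (0.111), the arrays centred (0.0969) or only the 2 groups in the fit (0.122). Some subunits that were not called passed when 1 array was left out: Smarca2 without HRAS replicate 3 (0.0484), Dpf3 without HRAS replicate 5 (0.0196), Arid1a without MYC replicate 4 (0.0241) and Smarcc1 without MYC replicate 6 (0.0378) as lower, and Bicral without MYC replicate 2 (0.0136) as higher.

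Markers of neurons differed between the same groups, though not array by array. The mean log2 level of 12 neuronal markers spanned 6.68 to 9.11 in MYC and 6.45 to 7.70 in HRAS, and 7 of the 12 fell (Tubb3, Map2, Dcx, Elavl3, Elavl4, Rbfox3 and Syp) while Gap43 and Nefl rose. MYC replicates 1, 2 and 3, at 6.82, 6.68 and 7.09, lay inside the HRAS range of the neuronal mean. Replicates 4, 5 and 6, at 9.06, 9.11 and 8.04, lay above it. The part of these markers in the result was not tested, and in bulk RNA fewer cells of a type cannot be told apart from less RNA per cell. MYC replicates 4 and 5 stood apart: their correlations with the rest of the group were 0.964 and 0.969, the lowest of the 32 arrays. Without both, 12 of 30 subunits passed, all lower, and Dpf1 and Smarcd3 stayed among those called. The mean of 7 markers of dividing cells spanned 9.95 to 11.1 in MYC and 9.81 to 10.7 in HRAS, and 5 of the 7 fell (Mki67, Pcna, Mcm2, Mcm3 and Rrm2), whose part was not tested either. The mean of 7 microglial markers stayed between 4.79 and 5.699 over all arrays, and Aif1, Csf1r and Itgam did not exceed 4.89, at the low end of the scale; Cd68, which reached 11.2, rose in HRAS. Of 6 astrocyte markers 3 fell and 1 rose, of 8 oligodendrocyte lineage markers 2 fell, and of 6 neural stem cell markers 2 rose and 2 fell.

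**Figure D3:**
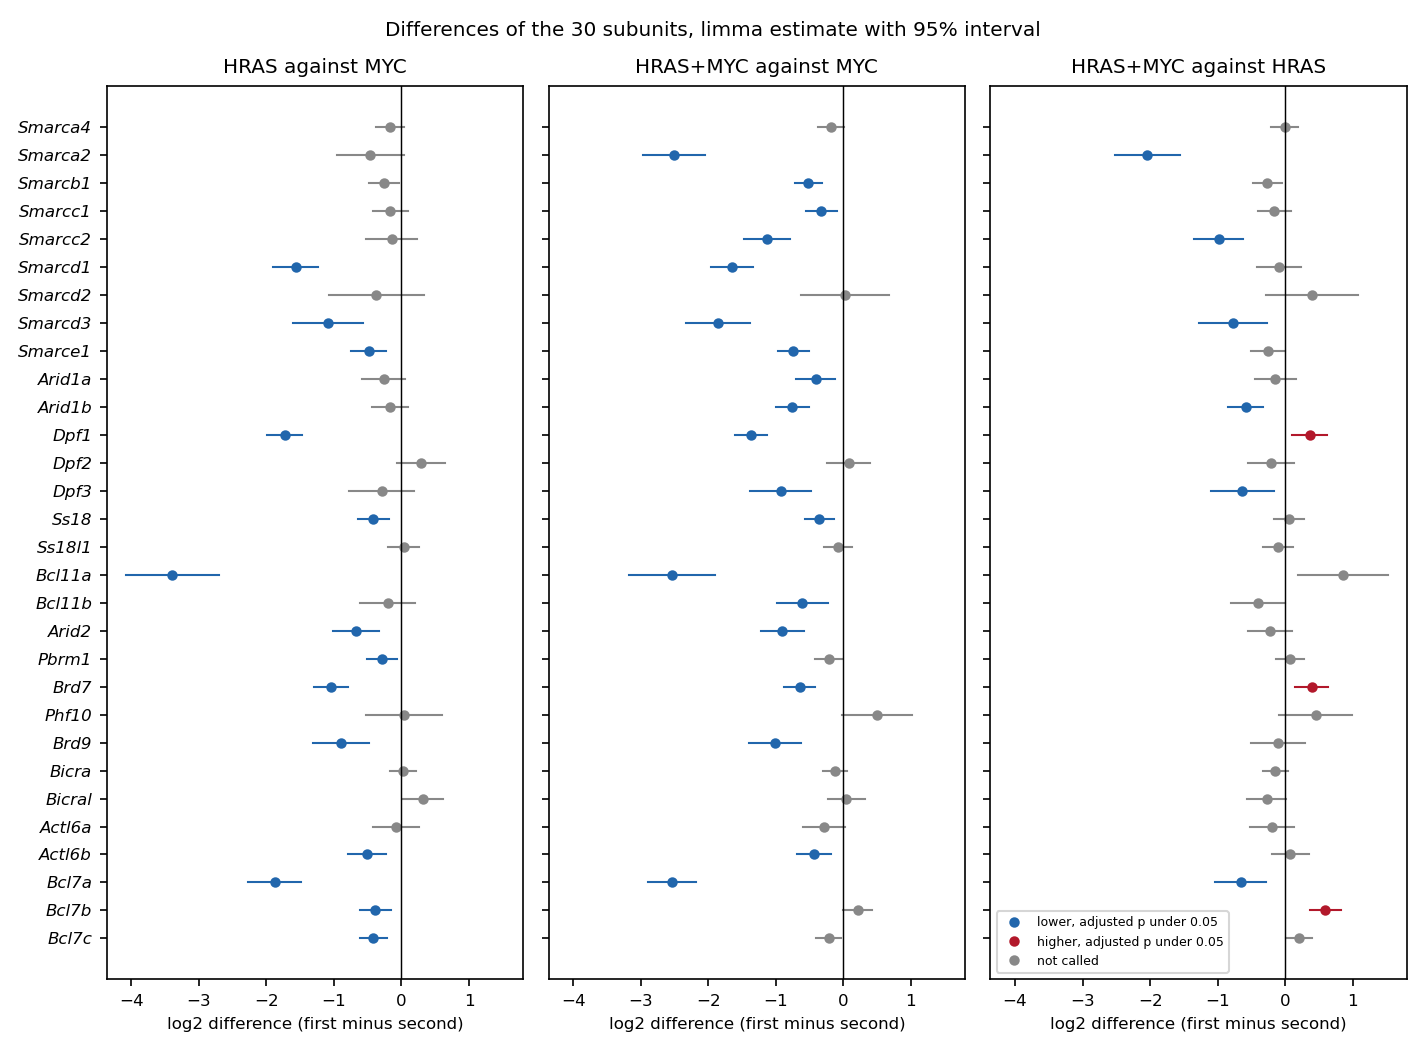
Log2 differences of the 30 subunits in 3 comparisons with their 95% intervals from the limma fit; blue is lower, red higher and grey not called at adjusted p under 0.05. All called subunits are lower in both comparisons against MYC, and in HRAS+MYC against HRAS 6 are lower, led by Smarca2, and 3 are higher.

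HRAS+MYC cultures were compared with MYC cultures to show what the added HRAS goes with in the AT/RT-like tumours. Here 19 of the 30 subunits fell and 0 rose, with a median of -0.48 over the 30 and 0.03 over all genes. Bcl7a, Bcl11a and Smarca2 moved most, with differences of -2.54, -2.54 and -2.50. All 3 neural subunits and Smarcb1 were among those that fell, with 15 of the 26 general subunits. The background was 34.2% of all genes called, 18.4% as lower and 15.8% as higher, and in expressed genes 50.1% called against 18 of 29 subunits (62.1%). These arrays share the MYC cultures with the comparison above, so the 2 sets of differences are not independent.

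The fall of Smarca2 (SE 0.22, adjusted p = 7.84e-10) left a gap between the groups of arrays. Its HRAS+MYC mean of 5.62 was under 6, so again no fold is given. Smarca4, the other ATPase, differed by -0.18 (95% interval -0.37 to 0.01, adjusted p = 0.144). Bcl7a ran from 6.84 to 8.33 in HRAS+MYC with a median of 7.14, below all MYC arrays (SE 0.17, adjusted p = 6.04e-12).
Bcl11a was spread widely in HRAS+MYC, at 5.94, 5.73, 6.04, 7.16, 6.39, 7.65 and 7.94 in replicates 1 to 7, and all 7 lay below the lowest MYC array (SE 0.31, adjusted p = 2.01e-07). Smarcd3 fell by 1.86 (SE 0.23, adjusted p = 3.09e-07) and Smarcd1, at 7.80, 7.86 and 8.21 (lowest, median and highest), fell by 1.65 (SE 0.15, adjusted p = 1.17e-09). Dpf1 fell by 1.37 (SE 0.12, adjusted p = 4.02e-10). For these genes too no HRAS+MYC array reached a MYC array.

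Smarcb1 fell by 0.52 (SE 0.10, 95% interval -0.72 to -0.32, adjusted p = 0.000111), which is 1.44-fold. The exact permutation test (2-sided) gave p = 0.000583, the smallest these arrays allow, for Smarcb1, for Dpf1 and for Smarcd3. Among the 26 general subunits 12 had a difference below that of Smarcb1, and their median was -0.38, so Smarcb1 lay within the range of the other subunits. The median of the 3 neural subunits was -1.37, which is the Dpf1 value. Bcl7a, Bcl11a, Smarca2 and Smarcd1 of the general list fell by more. Actl6b fell by 0.43 (SE 0.13, adjusted p = 0.00795), but without MYC replicates 4 and 5 its adjusted p was 0.0732.

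By role, the counts can be read against the 50.1% of expressed genes called. Of the 7 core subunits 6 fell: Smarcb1, Smarcc1, Smarcc2, Smarcd1, Smarcd3 and Smarce1. Smarcc2 (BAF170), a scaffold paired with Smarcc1, fell by 1.13, from 8.55, 8.91 and 9.66 in MYC to 7.56, 7.83 and 8.06 in HRAS+MYC. In BAF, 7 of 9 fell, including both alternative ARID subunits, Arid1a (-0.41) and Arid1b (-0.76). Dpf3, a neural and muscle PHD-finger subunit, fell by 0.93, and Bcl11b (-0.61) and Ss18 (-0.36) fell too. In PBAF, Arid2 (-0.90) and Brd7 (-0.65) fell, while Pbrm1 differed by -0.22 and Phf10 by 0.49. In ncBAF 1 of 3 fell, no larger a share than the background: Brd9 fell by 1.01, and its partners Bicra and Bicral differed by -0.12 and 0.05. In all, the arrays of 14 of the 30 subunits did not overlap, beside 15.4% of all genes.
Without MYC replicates 4 and 5 the count was 18, with 16 lower and 2 higher: Smarcd2 and Phf10 then passed as higher (adjusted p = 0.000451 and 0.0207). Those 2 arrays held Smarcd2 at 10.31 and 10.09, against 7.19 to 8.27 in the other 4. Smarcc1 (0.177), Ss18 (0.105), Bcl11b (0.113) and Actl6b (0.0732) did not pass in this setting, and Bicra (0.0469) passed as lower. Smarcc1 lost its call without HRAS+MYC replicate 4 (adjusted p = 0.0569) or MYC replicate 3 (0.0821) or 5 (0.0934), and Arid1a without MYC replicate 1 (0.0572), 3 (0.0507), 5 (0.0515) or 6 (0.0648). Bcl7c passed as lower when MYC replicate 1 (0.0317) or 2 (0.022) or HRAS+MYC replicate 1 (0.0469) was left out, and Pbrm1 without MYC replicate 6 (0.0198). With the arrays centred on their medians 17 subunits passed as lower and 1 as higher. The higher one was Bcl7b (0.32, adjusted p = 0.0347), and Smarcc1 (0.182) and Arid1a (0.125) lost their calls.

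The neuronal marker mean was 6.16 to 6.74 in HRAS+MYC, against 6.68 to 9.11 in MYC, and 7 of 12 markers fell while Stmn2 and Nefl rose. Other marker lists moved as well. The astrocyte mean was 5.09 to 5.697 in HRAS+MYC and 5.84 to 8.27 in MYC, with 3 of 6 markers lower. The oligodendrocyte lineage median was 5.83 against 7.83 (4 of 8 lower), and the neural stem cell median was 8.39 against 9.55 (3 of 6 lower, Vim higher). The microglial mean was 5.28 to 5.699 against 4.84 to 5.05, where 1 of 7 markers, Cd68, rose. The part of these markers in the fall of the subunits was not tested. Markers of dividing cells, with a mean of 10.5 to 10.8, lay inside the MYC range, and 1 of the 7 (Mki67) fell.

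HRAS+MYC was then compared with HRAS, which differ by the added MYC; both groups were already used above. Of the subunits 6 fell and 3 rose, and the background was 24.7% of all genes called, 13.0% lower and 11.7% higher. In expressed genes 37.6% were called, against 10 of the 29 subunits (34.5%), so the number called was near the background. Smarca2 led the falls with 2.04 (SE 0.23, adjusted p = 3.15e-07), with every HRAS+MYC array below every HRAS array. Smarcc2 fell by 0.98 (SE 0.18, adjusted p = 0.000133), from 8.65, 8.78, 9.25, 8.74 and 8.65 in HRAS to 8.06 at most. Bcl7b rose by 0.60 (SE 0.11, adjusted p = 0.000165), from 8.27, 8.60, 8.38, 8.31 and 8.58 in HRAS to 8.72, 9.11 and 9.27 (lowest, median and highest) in HRAS+MYC. The arrays of these 3 genes and of Bcl7c, which was not called (0.20, adjusted p = 0.129), did not overlap between the groups. That is 4 of the 30 subunits, beside 12.3% of all genes.

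The neural subunits went different ways with added MYC. Dpf1 rose by 0.36 (SE 0.12, adjusted p = 0.032), Smarcd3 fell by 0.77 (SE 0.24, adjusted p = 0.021), and Actl6b differed by 0.08 (95% interval -0.19 to 0.35, adjusted p = 0.724). Exact permutation tests gave p = 0.0139 for Dpf1, 0.00379 for Smarcd3 and 0.36 for Actl6b. Smarcb1 differed by -0.26 (95% interval -0.47 to -0.05, adjusted p = 0.0631; exact p = 0.00505), just short of the threshold. It passed without HRAS+MYC replicate 1 (adjusted p = 0.0491) or HRAS replicate 5 (0.0468). Dividing-cell markers had a median of 10.6 in HRAS+MYC and 10.01 in HRAS, with 2 of 7 (Pcna and Rrm2) higher. The neural stem cell median was 8.39 against 8.82 (2 of 6 lower), the astrocyte median 5.30 against 5.57 (1 of 6 lower), and 2 of 12 neuronal markers fell; the part of these markers was not tested. Bcl7a fell by 0.66, Arid1b fell by 0.58 and Brd7 rose by 0.39. Bcl11a differed by 0.86 (adjusted p = 0.0541) and passed as higher without HRAS+MYC replicate 1 (0.0312), 2 (0.021) or 3 (0.0362).
Dpf3 fell by 0.63 (SE 0.23, adjusted p = 0.0425), from 5.89, 5.71, 6.32, 6.59 and 7.62 in HRAS to 5.41, 5.77 and 6.18 (lowest, median and highest), and HRAS replicate 5 carried much of it: the difference was -0.34 without that array (adjusted p = 0.223). The call of Dpf3 was also lost without any one of HRAS replicates 3 and 4 and HRAS+MYC replicates 1, 2, 4 and 7 (adjusted p from 0.0577 to 0.0934).
Dpf1 lost its call without HRAS+MYC replicate 3 (0.0746) or 6 (0.0629) or HRAS replicate 1 (0.0883), 4 (0.1) or 5 (0.0687), Smarcd3 without HRAS replicate 3 (0.0685) or 4 (0.0682), and Brd7 without HRAS replicate 4 (0.0775), where 5 calls were left. Bicral passed as lower without HRAS+MYC replicate 5 (0.0451). With arrays centred on their medians the split of calls was 5 higher and 5 lower.

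Ezh2, the methyltransferase of Polycomb repressive complex 2, and Bmi1, a subunit of Polycomb repressive complex 1, were added to MYC. In MYC+Ezh2 against MYC 0 of 30 subunits passed by limma, where 0.246% of all genes did (0.130% higher, 0.115% lower), and 0 of 30 had an unadjusted p under 0.05, against 10.8% of all genes. The largest difference was 0.58 for Bcl11a, and the median half-width of the 95% intervals was 0.31. In MYC+Bmi1 against MYC 0 of 30 passed by limma, with 0.150% of all genes (0.0502% as lower), and 2 of 30 had an unadjusted p under 0.05 (Brd7 and Bicra), against 11.6% of all genes. Here the largest difference was -0.49 for Phf10, and the median half-width was 0.36. Half-widths differed between genes, and the widest were 0.70 with Ezh2 and 0.82 with Bmi1. A difference smaller than a gene's own half-width could not be told from 0. This holds for the Bcl11a and Phf10 differences, which had no unadjusted limma p under 0.05. No subunit's arrays separated from MYC in either comparison (0 of 30 each), beside 0.958% of all genes with Ezh2 and 4.09% with Bmi1. Dpf1 differed by 0.21 with Ezh2 (95% interval -0.05 to 0.47) and by -0.07 with Bmi1 (-0.38 to 0.23), and Smarcb1 by 0.07 (-0.15 to 0.29) and 0.04 (-0.21 to 0.30).

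With Bmi1 added to HRAS, 4 of 30 subunits rose and 0 fell, against a background of 5.91% called, 2.87% higher and 3.04% lower. Among expressed genes 10.6% were called, against 4 of 29 subunits (13.8%), so the number called was near the background. The 4 that rose were Smarcd3 (2.10, SE 0.35, adjusted p = 0.000363), Smarcd1 (1.36, SE 0.23, adjusted p = 0.000351), Bcl7c (0.77, SE 0.13, adjusted p = 0.000606) and Dpf1 (0.75, SE 0.18, adjusted p = 0.00988). Smarcd3 was 4.29-fold higher, and only 1 array of the other 30, a MYC+Bmi1 array at 8.91, reached into its HRAS+Bmi1 range. Smarcd1 was at 9.71 and 9.08, and Bcl7c at 9.52 and 9.01 where the HRAS arrays ran from 8.33 to 8.59. None of these 4 overlapped between the groups. Of the members 9 of 30 did not overlap, beside 22.7% of all genes. Smarcb1 differed by 0.33 (95% interval 0.03 to 0.64, adjusted p = 0.213) and Actl6b by 0.02 (-0.37 to 0.41).

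A test of the difference between the Bmi1 effects in HRAS and in MYC cells, added after the data were seen, passed for Smarcd3 (1.97, SE 0.46, adjusted p = 0.0191), Smarcd1 (1.17, SE 0.30, adjusted p = 0.0315) and Bcl7c (0.88, SE 0.18, adjusted p = 0.00637). That is 3 of 30 subunits, beside 2.43% of all genes. For Dpf3 the difference of effects was 1.44 (adjusted p = 0.069) and for Dpf1 0.82 (adjusted p = 0.055), and neither passed. None of the 3 passed without HRAS+Bmi1 replicate 1 (adjusted p = 0.173, 0.357 and 0.192). The Bmi1 group in HRAS has 2 arrays, and with 1 left out the remaining array is assumed to vary like the other groups. Without HRAS+Bmi1 replicate 1, of these 4 Smarcd3 passed against HRAS, and Smarcd1 (1.05, adjusted p = 0.082), Bcl7c (0.52, 0.159) and Dpf1 (0.67, 0.232) did not. Without replicate 2 Dpf1 did not (0.82, 0.0797). Without HRAS replicate 5 Dpf3 passed as higher (adjusted p = 0.00388). The neural stem cell marker mean was 10.39 and 10.44 in the HRAS+Bmi1 arrays and 8.61 to 9.72 in HRAS, and 2 of its 6 genes (Nes and Prom1) rose. The astrocyte mean was 6.49 and 6.67 against 5.35 to 6.16, and 1 of 6 genes (Aldh1l1) rose, as did 2 of 7 dividing-cell markers (Mcm2 and Rrm2), while Cd68 fell. The part of these markers in the rises was not tested.

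**Figure D4:**
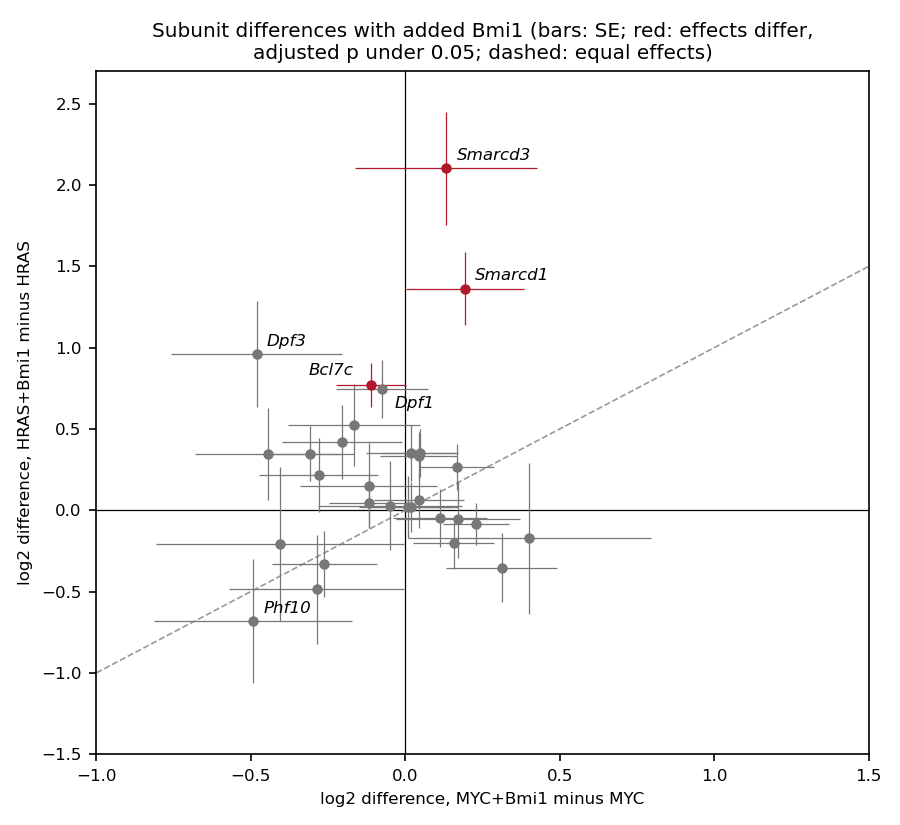
Log2 differences of the 30 subunits with added Bmi1, in MYC cells (horizontal) and in HRAS cells (vertical), with bars of 1 SE; red marks the 3 subunits whose Bmi1 effects differed at adjusted p under 0.05. Smarcd3, Dpf3, Smarcd1, Bcl7c and Dpf1 lie farthest above the dashed line of equal effects, and most other subunits lie within 0.5 of 0 on both axes.

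The consecutive cultures received the oncogenes in turn, in cells that had already formed a tumour, and each of these groups has 2 arrays. The order of the oncogenes therefore cannot be told apart from the earlier tumour or the parent culture. Cultures in which HRAS was added to PNET-derived cells had lower subunit levels: 15 of 30 fell and 0 rose in MYC then HRAS against MYC, with a median of -0.48. The background was 20.4% called, 10.6% as lower and 9.83% as higher, and in expressed genes 32.6% were called, against 16 of 29 subunits (55.2%). Those that moved most were Bcl7a (-2.27), Smarca2 (-2.16), Smarcd3 (-1.66), Bcl11a (-1.61), Smarcd1 (-1.51) and Dpf1 (-1.42), with adjusted p from 2.50e-07 to 0.0115. Smarcc2, Arid2, Arid1b, Brd9, Brd7 and Smarce1 fell too, with differences of -1.16 to -0.54, as did the ncBAF subunits Bicral (-0.56) and Bicra (-0.46). The arrays of 17 of the 30 subunits did not overlap, beside 28.0% of all genes. Of the 12 neuronal markers 6 fell and Nefl rose, and their part was not tested. Smarca4 fell by 0.39 (adjusted p = 0.0472), its only call in the 10 comparisons, and Smarcb1 differed by -0.33 (adjusted p = 0.107). Against HRAS+MYC, where both oncogenes came together, 0 of 30 passed by limma, 4 of 30 had an unadjusted p under 0.05, and 0.110% of all genes passed (0.0702% higher, 0.0401% lower). The arrays of 6 of the 30 did not overlap, beside 10.7% of all genes. The largest difference there was 0.93 for Bcl11a and the median half-width of the intervals was 0.41.
Of the calls against MYC, those of Smarce1 (adjusted p = 0.11 and 0.172), Brd9 (0.292 and 0.0826), Bicral (0.3 and 0.126) and Smarca4 (0.221 and 0.207) were lost without either MYC then HRAS array, those of Bcl11a (0.259) and Brd7 (0.0737) without replicate 1, and that of Bicra (0.144) without replicate 2. Smarca4 was also lost without MYC replicate 1, 3, 4 or 5 (adjusted p from 0.0636 to 0.0814), and Bicral without MYC replicate 1, 2 or 4 (0.0594 to 0.0812). Leaving out MYC replicate 6 raised the count to 18, and leaving out MYC then HRAS replicate 1 lowered it to 9; without replicate 6 Smarcc1 (0.00613), Pbrm1 (0.0161) and Ss18 (0.033) passed as lower, and without MYC replicate 4 Arid1a did (0.0115).

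In the reverse order the parent group is HRAS, and the 2 orders were not compared with each other. In HRAS then MYC against HRAS 4 subunits rose and 1 fell, with 12.5% of all genes called, 6.30% higher and 6.21% lower. The subunits that rose were Dpf1 (1.02, SE 0.18, adjusted p = 0.00029), Bcl7c (0.93), Actl6a (0.81) and Brd7 (0.79), and Bicral fell by 0.80. Expressed genes had 21.1% called, against 6 of 29 subunits (20.7%), and the arrays of 13 of 30 did not overlap, beside 28.6% of all genes. Smarca2, which fell where MYC was given together with HRAS, was at 7.25 and 7.29, within the HRAS range, and differed by -0.39 (95% interval -1.08 to 0.30, adjusted p = 0.545). Smarcb1 differed by 0.43 (95% interval 0.13 to 0.73, adjusted p = 0.0548). The neuronal marker mean was 5.78 and 5.85 against 6.45 to 7.70 in HRAS (2 of 12 lower). The neural stem cell mean was 7.89 and 8.16 against 8.61 to 9.72 (2 of 6 lower), and the dividing-cell mean was 10.86 and 10.92 against 9.81 to 10.7 (1 of 7 higher). The part of these markers was not tested.
Without HRAS then MYC replicate 1 the calls of Brd7 (adjusted p = 0.0571), Actl6a (0.126) and Bicral (0.233) were lost and 2 remained; Actl6a was also lost without replicate 2 (0.182) or HRAS replicate 4 (0.05), and Smarcb1 passed as higher without HRAS replicate 2 (0.0225) or with the arrays centred (0.0122). Centring the arrays moved all differences of this comparison by 0.15 and of HRAS+MYC against MYC by 0.11.

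Set directly against HRAS+MYC, HRAS then MYC had 8 of 30 subunits higher and 0 lower, where 12.1% of all genes passed, 6.89% as higher and 5.17% as lower. They were Smarca2 (1.65, SE 0.32, adjusted p = 0.000804), Bcl7a (1.10), Smarcd3 (1.09), Actl6a (1.00), Bcl7c (0.73), Smarcb1 (0.69, SE 0.14, adjusted p = 0.00128), Dpf1 (0.66) and Smarce1 (0.53). In these 8 the 2 arrays lay above all 7 HRAS+MYC arrays; 13 of 30 subunits showed no overlap, beside 27.9% of all genes. Actl6a was at 10.84 and 10.87, higher than in any of the other 30 arrays. Smarcb1 differed by more than 22 of the 26 general subunits, whose median was 0.15. Expressed genes had 20.3% called, against 8 of 29 subunits (27.6%). The neuronal marker mean was 5.78 and 5.85 in these cultures, lower than the 6.16 to 6.74 of HRAS+MYC, and 1 of the 12 markers (Stmn2) fell.
HRAS then MYC has 2 arrays, and with 1 left out the other is assumed to vary like the other groups. Without replicate 2, of the 8 only Smarca2 and Bcl7c passed; Bcl7a (1.20, adjusted p = 0.0532), Actl6a (0.99, 0.0724) and Smarce1 (0.56, 0.214) kept the size of their differences, and Smarcb1 (0.51, 0.151), Dpf1 (0.47, 0.343) and Smarcd3 (0.91, 0.378) had smaller ones. Without replicate 1, Bcl7a (0.0848), Smarcd3 (0.11) and Smarce1 (0.224) were lost, and Smarce1 also without HRAS+MYC replicate 4 (0.0541).

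**Figure D5:**
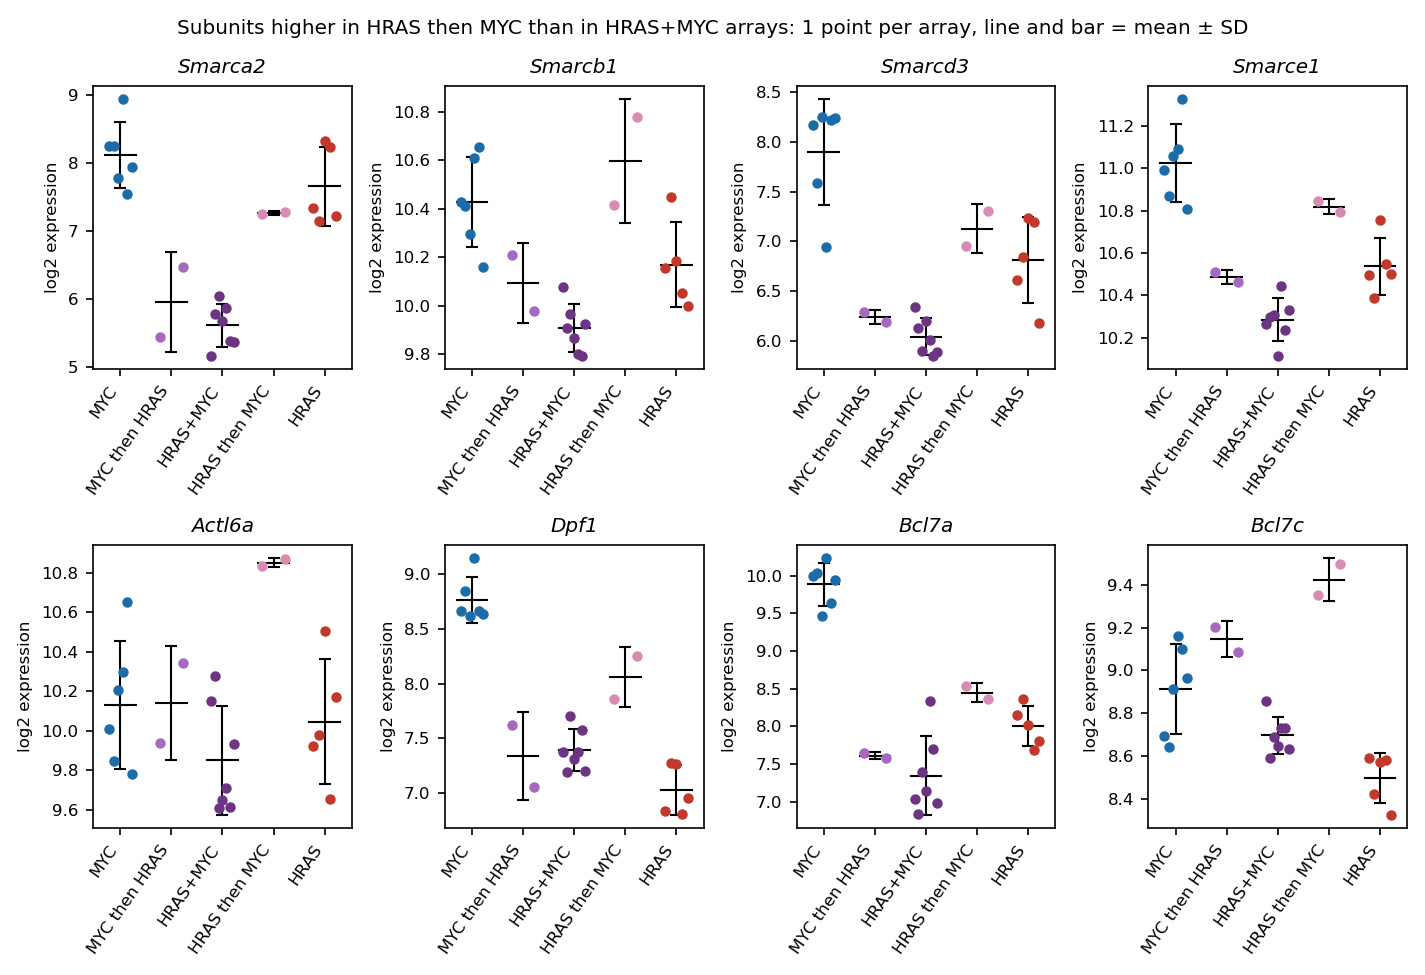
Log2 expression of the 8 subunits that were higher in HRAS then MYC than in HRAS+MYC, in 5 groups ordered from MYC to HRAS; each point is an array, and the line and bar are the mean and SD. The HRAS then MYC arrays lie above all HRAS+MYC arrays in each panel, and MYC then HRAS lies near HRAS+MYC for Smarca2, Smarcd3 and Dpf1.

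Actl6a, Dpf2 and Phf10, the progenitor counterparts of Actl6b and Dpf1, were not called in HRAS or HRAS+MYC against MYC. Smarcd1, the paralogue of Smarcd3, was called lower in both comparisons. Where Actl6b fell, Actl6a differed by -0.08 (HRAS against MYC) and by -0.28 (HRAS+MYC against MYC), and where Dpf1 fell, Dpf2 differed by 0.29 and 0.08 and Phf10 by 0.04 and 0.49. Phf10 passed as higher in HRAS+MYC without MYC replicates 4 and 5 (0.80, adjusted p = 0.0207). In MYC then HRAS against MYC Actl6a differed by 0.01, Dpf2 by -0.31 and Phf10 by 0.37, none of them called. Ss18l1, the neuronal paralogue of Ss18, passed in no comparison, while Ss18 was called lower in HRAS and in HRAS+MYC against MYC. Rest, the repressor that silences neuronal genes outside neurons, rose against MYC in HRAS (1.56, adjusted p = 1.29e-07), in HRAS+MYC (1.20, adjusted p = 1.90e-06) and in MYC then HRAS (0.91). Ptbp2, a splicing regulator of young neurons, fell against MYC in HRAS (-1.45), in HRAS+MYC (-2.27) and in MYC then HRAS (-1.73). It rose by 1.15 in HRAS+Bmi1 against HRAS (adjusted p = 0.0319), where Smarcd3 and Dpf1 rose. Rcor1 and Ptbp1 passed in none of the 10 comparisons.

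Other chromatin remodellers were counted in the same comparisons. Of 56 measured genes of the ISWI, CHD and NuRD, INO80 and SRCAP and other SNF2 families, 23 fell and 4 rose in HRAS against MYC, with a median of -0.20. In HRAS+MYC against MYC 24 fell and 6 rose, with a median of -0.24, and in HRAS+MYC against HRAS 8 fell and 7 rose. In MYC then HRAS against MYC 19 fell and 3 rose. Cecr2, a neural ISWI-associated bromodomain protein, fell by 2.51 in HRAS against MYC, the largest fall among the 56. The share of these 56 called was 48.2% in HRAS against MYC and 53.6% in HRAS+MYC against MYC, beside 46.7% and 63.3% of the 30 subunits. All genes had 33.4% and 34.2% called and expressed genes 52.3% and 50.1%, so the share of remodellers called was near that of expressed genes. The difference between the lists was not tested.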

How the data were processed

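Each of 32 tumour-derived neurosphere cultures was hybridised to its own Mouse Gene 1.0 ST array. Per the submitters' processing notes, the authors ran RMA (robust multi-array average) in Expression Console 1.0. The deposited values, between 1.44 and 14.5 with array medians of 5.59 to 5.79, have the range of log2 values. RMA equalises the arrays' distributions, so an overall change of RNA would not show, and weak genes have compressed differences. No detection calls were used; the number of arrays limits the precision.

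A gene was represented by the single-symbol probe set with the highest mean. Smarce1 and Pbrm1 had 3 each, which differed in the same direction in both comparisons against MYC. One limma 3.58.1 fit (R 4.3.3) of 8 group means over all arrays gave 10 contrasts and an F test, 2-sided, with Benjamini-Hochberg adjustment over 19938 genes and a threshold of 0.05. The fit was tested on simulated data. No 2 arrays were duplicates (highest correlation 0.994). Alternatives left out each array, MYC replicates 4 and 5, weak genes or the other groups, centred the arrays, averaged probe sets, changed the variance model or added a replicate block.

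Genes named: all 30 members, in full for Dpf1, Actl6b, Smarcd3, Smarcb1, Smarca4, Smarca2 and the 6 largest changes called in each of the first 3 comparisons. Members and lists were chosen with earlier results of these data known. Ccnb1 and Ino80e, also listed, had no single-symbol probe set.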

Additional observations from a re-analysis of the deposited data

Results flagged for a closer look

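Single arrays stood apart from the rest of their group in 7 of the 120 combinations of subunit and group tested (groups of 4 to 10 arrays), where chance gives about 6. Smarcc2 was at 9.25 in HRAS replicate 3, above the other HRAS arrays at 8.65 to 8.78. Brd9 was at 9.79 in MYC replicate 5, above 8.46 to 8.90, and Dpf2 was at 9.14 in that array, below 9.88 to 10.14. In MYC+Ezh2, replicate 3 was high for Actl6b (5.59) and Bcl7b (8.93), and replicate 5 was low for Brd7 (9.54). Bicral was at 8.15 in HRAS+MYC replicate 5, above 7.42 to 7.59.

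The effect of added Bmi1 differed between HRAS and MYC cells, by the limma test of that difference, for 3 subunits. The difference was 1.97 for Smarcd3, 1.17 for Smarcd1 and 0.88 for Bcl7c. With only the 4 groups in the fit none of the 3 passed (adjusted p = 0.143, 0.145 and 0.104), and without HRAS+Bmi1 replicate 1 none did (0.173, 0.357 and 0.192). Smarcd3 also did not pass without HRAS+Bmi1 replicate 2 (0.083) or MYC+Bmi1 replicate 1 (0.0504) or 3 (0.0682), nor Smarcd1 without MYC+Bmi1 replicate 1 (0.0619) or 3 (0.0836) or HRAS replicate 4 (0.0544) or 5 (0.0503). The cause was not tested.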

How the results depend on the processing

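Leaving out 1 array at a time, the count of called subunits was 13 to 16 in HRAS against MYC (reported 14) and 17 to 20 in HRAS+MYC against MYC (reported 19). It was 5 to 10 in HRAS+MYC against HRAS (reported 9), 1 to 5 in HRAS+Bmi1 against HRAS (reported 4), 9 to 18 in MYC then HRAS against MYC (reported 15), 2 to 6 in HRAS then MYC against HRAS (reported 5) and 2 to 8 in HRAS then MYC against HRAS+MYC (reported 8). The comparisons with a count of 0 kept it in every setting. With only the 2 groups in the fit, HRAS+Bmi1 against HRAS gave 1 and MYC then HRAS against MYC gave 9, where fewer arrays estimate the spread; centring the arrays gave 10 in the latter. The replicate block gave 15, 19 and 8 in the first 3 comparisons, 14 in MYC then HRAS against MYC and 6 in HRAS then MYC against HRAS+MYC; with it Smarcb1 passed in HRAS against MYC (adjusted p = 0.0453) while Smarcd3 did not in HRAS+MYC against HRAS (0.0584), Smarca4 in MYC then HRAS against MYC (0.0977), or Smarcd3 (0.0925) and Smarce1 (0.0591) in HRAS then MYC against HRAS+MYC, and the difference of the Bmi1 effects on Smarcd1 (1.17) had an adjusted p of 0.0593. The labels do not say whether equal replicate numbers pair the arrays. Same-numbered arrays of different groups had a median correlation of deviations of 0.012 and a highest of 0.43. Of 79 such pairs 11 exceeded 0.1, and 9 of 32 arrays correlated best with their own number. These values do not settle whether some arrays are paired. Over single subunits, leaving out 1 array gave the same call in 2793 of 2880 cases, a lost call in 64 and a new call in 23. The other settings gave 1878 of 1940, 43 and 18. Most of these cases are subunits not called in the comparison, which had no call to lose. The 1 reversal was Smarcd2 in MYC then HRAS against MYC, from -0.03 to 0.73 without MYC replicates 4 and 5 (adjusted p = 0.0204). Between 22 and 28 subunits passed the test over 8 groups in all settings. Arrays of 2 per group limit the Bmi1 and consecutive comparisons, and Actl6b is near the floor of the scale.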
